A study of Mus musculus with 34 samples.

Results

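PPARγ is the nuclear receptor that binds fatty acid derived ligands and DNA as a dimer with RXR, and AP-1 is a family of dimers built from monomers such as ATF3, Jun and JunD. The loci described here were those in resting thioglycollate elicited macrophages (TGEMs) where all 3 monomers had a ChIP-seq peak, where PPARγ also had a peak, and where at least 1 of 6 AP-1 lists made after KLA treatment had none. They were chosen by these peak calls in the C57 Veh and C57 KLA lists: 5012 of 29552 resting AP-1 loci (17.0%, 95% Wilson interval 16.5% to 17.4%), and 47.5% of the 10558 loci shared by ATF3, Jun and JunD. The same rule without a PPARγ peak gave 1878 loci, which serve for comparison, and 3668 shared loci had a peak in all 6 KLA lists and are called hubs here, 83.9% of them with a PPARγ peak.

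TGEMs are macrophages that enter the peritoneum after an injection of thioglycollate. Cells came from male C57Bl/6EiJ or Balb/cJ mice of 8 weeks, or from male mice labelled PPARgKO on a C57Bl6 background, whose age, allele and Cre are not given in the sources used here. They received PBS (Veh) or 100 ng/mL KLA, a lipid that activates TLR4, for 1 h, and the knockout cells received Veh only. Because no PPARγ list from knockout cells was analysed, the knockout could not be checked from these files. Each antibody and condition has 1 list of peaks that passed the IDR over replicate experiments (no replicates), so values are shares of loci, and no p is given. The intervals cover counting over loci only, and loci of one list are not independent replicates of a condition. The 28 lists used held 463 to 41573 peaks with counts that summed to 9196 to 13809143. All 6 macrophage markers tested, which include Adgre1, Itgam and Cd68, had a resting AP-1 locus within 5 kb of the gene, against 6 of 8 T and B cell genes, 1 of 8 neutrophil and mast cell genes, 2 of 8 hepatocyte and muscle genes and 42.4% of all protein-coding genes. For the 5012 loci themselves these counts were 3 of 6 macrophage markers, 3 of 8 T and B cell genes, 1 of 8 neutrophil and mast cell genes and 0 of 8 hepatocyte and muscle genes. A peak near a gene is not a measure of its expression, and the part of other cell types was not tested.

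In macrophages PPARγ is known for lipid uptake, storage and catabolism and for restraining inflammatory genes, while AP-1 dimers bind many of the enhancers that PU.1 and C/EBP factors open. AP-1 dimers recognise the TRE (TGAGTCA or TGACTCA) or the CRE, which has 1 more base in the middle. PPARγ with RXR recognises a direct repeat of AGGTCA with 1 base between the copies, called the full PPARγ motif below, and a single copy of AGGTCA is called the single PPAR site.

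The central 200 bp of 6 loci are printed to show what these sites look like, on the plus strand of mm10 (GRCm38 sequence from RefSeq). They are the 3 loci with the highest PPARγ counts that held a TRE and a full PPARγ motif with up to 2 mismatches, the 2 highest that held a single PPAR site but no TRE and no full motif, and the highest that held neither a TRE, a CRE nor any PPAR site. Capitals mark the TRE, the single PPAR site on either strand and the full motif. The CRE is not marked, and the separate AGGTCA of the Rnf135 window is part of TGAGGTCA, a spelling of the CRE.
Plin2 locus: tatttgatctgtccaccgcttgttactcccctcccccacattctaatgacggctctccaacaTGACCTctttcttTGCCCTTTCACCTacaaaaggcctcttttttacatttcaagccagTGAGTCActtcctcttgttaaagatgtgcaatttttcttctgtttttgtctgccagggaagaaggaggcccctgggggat
Rnf135 locus: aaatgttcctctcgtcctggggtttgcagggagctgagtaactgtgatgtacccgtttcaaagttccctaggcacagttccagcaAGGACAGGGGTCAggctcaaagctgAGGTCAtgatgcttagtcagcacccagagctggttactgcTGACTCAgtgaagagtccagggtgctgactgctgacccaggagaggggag
Frmd4a locus: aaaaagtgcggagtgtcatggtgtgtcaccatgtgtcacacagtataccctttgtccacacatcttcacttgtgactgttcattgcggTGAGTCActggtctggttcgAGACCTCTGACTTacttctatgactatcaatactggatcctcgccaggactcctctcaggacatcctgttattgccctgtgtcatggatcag
Prss30 locus: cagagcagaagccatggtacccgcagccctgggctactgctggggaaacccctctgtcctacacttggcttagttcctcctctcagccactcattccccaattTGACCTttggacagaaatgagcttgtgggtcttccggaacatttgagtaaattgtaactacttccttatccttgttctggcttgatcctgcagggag
Amz1 locus: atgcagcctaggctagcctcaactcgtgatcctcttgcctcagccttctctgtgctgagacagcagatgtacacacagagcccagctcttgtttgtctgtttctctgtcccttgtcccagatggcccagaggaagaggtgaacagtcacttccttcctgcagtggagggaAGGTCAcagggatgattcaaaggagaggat
Lipa locus: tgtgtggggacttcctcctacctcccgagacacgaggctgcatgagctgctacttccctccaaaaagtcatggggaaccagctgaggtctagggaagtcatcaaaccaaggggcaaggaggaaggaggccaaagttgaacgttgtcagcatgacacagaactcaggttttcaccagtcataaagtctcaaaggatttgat

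The Plin2 window (chr4:86671916-86672115) is intergenic and lies 1955 bp from a transcription start site (TSS) of Plin2, which coats lipid droplets. Its locus had a count of 457 for PPARγ, 111 for ATF3, 50 for Jun and 94 for JunD. The Rnf135 window (chr11:80171944-80172143) is intronic, 5586 bp from a TSS of the non-coding Adap2os and 11808 bp from that of Rnf135, the nearest protein-coding gene, with a PPARγ count of 418. The Frmd4a window (chr2:4480255-4480454) is intronic, 7160 bp from a Frmd4a TSS, with a PPARγ count of 389. In all 3 the full motif had 2 mismatches.

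The Prss30 window (chr17:23967058-23967257) is intergenic, with a PPARγ count of 451, and the Amz1 window (chr5:140764940-140765139) is intronic, with a count of 425. The Lipa window (chr19:34515799-34515998) is intronic, 4918 bp from the TSS of Lipa, the lysosomal acid lipase that releases cholesterol and fatty acids from lipoprotein lipid. Its PPARγ count of 563 was the highest of the 5012 loci, yet none of the AP-1 and PPAR spellings searched was found in its central 200 bp. In the knockout, ATF3, Jun and JunD peaks were all present at the Plin2, Rnf135 and Lipa loci, only ATF3 at the Frmd4a and Amz1 loci, and none at the Prss30 locus.

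Counts are not scaled between lists, so strength is given as the percentile of a peak among all peaks of its own list. The median percentile at the 5012 loci was 66.5 for ATF3, 59.8 for Jun, 64.9 for JunD and 70.6 for PPARγ. The loci without PPARγ had medians of 57.6 for ATF3, 48.5 for Jun and 48.2 for JunD, and the hubs had 85.0, 81.1 and 85.2. The loci with PPARγ thus lay between the other sets in the strength of all 3 monomers, which were also used to choose them. PPARγ counts ran from 12 to 563 with a median of 53, Jun counts from 12 to 109 with a median of 29, ATF3 counts from 25 to 353 with a median of 74, and JunD counts from 27 to 226 with a median of 61.

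The rule asks for a PPARγ peak that overlaps the locus, so a short distance between their centres largely follows from the rule. The nearest PPARγ peak centre lay a median of 29 bp from the locus centre, and 73.5% lay within 50 bp. The overlap with PPARγ that the rule asks for was 5 bp to 385 bp with a median of 218 bp, and 8 of 5012 loci had under 20 bp. Just outside the rule, 50 of the 1878 loci without PPARγ had a PPARγ peak within 100 bp, with a smallest gap of 0 bp. Of the 31089 PPARγ peaks, 5010 (16.1%) were at these loci and 55.4% at any resting AP-1 locus. Of the 1000 PPARγ peaks with the highest counts, 297 were at these loci and 897 at any resting AP-1 locus.

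The loci were mostly distal. Of the 5012, 1195 (23.8%, 22.7% to 25.0%) had their centre within 1000 bp of a TSS, 196 (3.91%) were in other exons, 2124 (42.4%) in introns and 1497 (29.9%) between genes. The median distance to a TSS was 5358 bp. Loci without PPARγ were within 1000 bp of a TSS in 17.6%, a difference of 6.22 percentage points (95% Newcombe interval 4.09 to 8.26), and hubs in 14.0%. Over all 29552 resting loci the share was 24.9%, so the loci with PPARγ lay close to the average of resting AP-1 loci in this respect. Per chromosome they made up between 13.7% (X) and 19.4% (8) of the resting AP-1 loci.

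The KLA lists were part of the rule, so the fate of the loci after KLA is described without a comparison to chance. After 1 h of KLA, 4546 loci (90.7%) had an ATF3 peak, 4393 (87.6%) a JunD peak, 3551 (70.8%) a Fos peak, 2994 (59.7%) a Jun peak, 1982 (39.5%) a JunB peak and 814 (16.2%) a FosL2 peak. This order is also the order of the lengths of the 6 KLA lists, from 36745 peaks for ATF3 to 10619 for FosL2. The commonest pattern, at 1394 loci (27.8%), was a peak in every KLA list but FosL2. Another 665 loci (13.3%) lacked FosL2 and JunB.

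Of the resting binding itself, 9.30% of the loci had no ATF3 peak in KLA, 40.3% no Jun peak and 12.4% no JunD peak. Over all resting loci of the same monomer these shares were 18.6%, 42.1% and 22.0%. The loci without PPARγ lacked ATF3 in 8.89%, Jun in 47.7% and JunD in 16.7%. JunB, a KLA-induced monomer that had 463 peaks in Veh, had a KLA peak at 39.5% of the loci with PPARγ and at 27.8% of those without, and FosL2 in KLA was found at 16.2% and 19.1%. The rule left out the hubs, which have a peak in all 6 KLA lists, and 3078 of the 3668 hubs had a PPARγ peak. The KLA shares with and without PPARγ therefore describe the loci left by the rule and not all shared loci.

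Only 221 loci (4.41%, 3.87% to 5.01%) had no peak in any of the 6 KLA lists, while 1950 (38.9%) had a peak in 5. The loci with 0 KLA lists were weaker in Veh, with a median Jun percentile of 30.1 against 70.4 at those with 5, and differed less in PPARγ, with 63.9 against 74.3. The TRE was found at 9.09% of the loci with 0 lists and at 37.8% of those with 5, a difference of -28.7 percentage points (-32.5 to -23.7). The single PPAR site was at 20.9% and 19.4%, a difference of 1.46 percentage points (-3.72 to 7.55), and a PU.1 peak in Veh at 72.9% and 73.1%. The share within 1000 bp of a TSS was 22.2% at 0 lists, 32.5% at 2 and 16.8% at 5. The median Jun percentile and the TRE share were both higher at 5 lists than at 0, while the shares of the single PPAR site and of the full PPARγ motif (5.00% and 4.87%) were close in these classes. The part of Jun strength in the TRE shares was not tested.

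**Figure D1:**
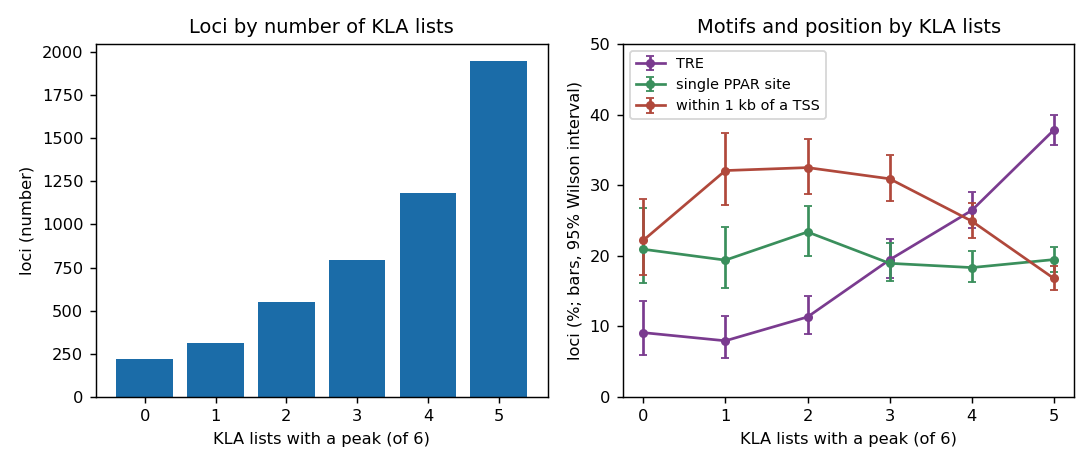
Left, the 5012 loci by the number of KLA lists with a peak (x axis, of 6; y axis, number of loci). Right, the share of loci in each class with a TRE, with a single PPAR site and with a TSS within 1 kb (y axis, percent; bars, 95% Wilson intervals); the TRE share went from 9.09% at 0 lists to 37.8% at 5, while the share with a single PPAR site was between 18.3% and 23.4%.

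The 3 loci with the highest PPARγ counts among those with no KLA peak were all intronic. At chr1:86214312-86214584 in Armc9, the counts in Veh were 365 for PPARγ, 38 for ATF3, 35 for Jun and 59 for JunD, and PU.1 had a count of 317. At chr12:73630621-73630914 in Prkch, an isoform of protein kinase C, PPARγ had 331, ATF3 41, Jun 20 and JunD 34. At chr7:99680795-99681110 in Slco2b1, an organic anion transporter, PPARγ had 291, ATF3 41, Jun 22 and JunD 41, and the window held a full PPARγ motif. All 3 were in the top 1% of PPARγ peaks, at percentiles of 99.1 to 99.6, which follows from how they were chosen. Their ATF3 peaks were at percentiles of 22.4 to 28.0. In the Armc9, Prkch and Slco2b1 loci Jun was at percentiles of 72.3, 30.1 and 38.3, and JunD at 62.6, 14.3 and 31.8.

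Among shared loci that lacked a KLA list, the TRE was less frequent at those with PPARγ. Of 5010 loci with sequence, 1311 (26.2%, 25.0% to 27.4%) had a TRE in the central 200 bp, against 35.3% of the loci without PPARγ, a difference of -9.08 percentage points (-11.6 to -6.62), and 55.9% of the hubs. Most hubs also had a PPARγ peak (3078 of 3668, 83.9%), so the TRE difference describes the loci left by the rule and not all AP-1 loci with PPARγ. Over all resting loci the share was 26.0%. Compared within 10 bins of Jun count, the difference was -10.8 percentage points. The CRE (TGACGTCA, TGAGGTCA, TGACCTCA or TGAGCTCA) was at 9.82% and 10.0% of the loci with and without PPARγ, a difference of -0.19 percentage points (-1.83 to 1.35), and at 7.27% of all resting loci. TREs were concentrated at the middle of the loci, at a median of 23.5 bp from the centre, with 45.5% of the 1414 matches within 20 bp.

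PPAR motifs were more frequent, but most loci had none. The single PPAR site was at 19.6% of the loci with PPARγ and 16.8% of those without, a difference of 2.75 percentage points (0.69 to 4.73), and at 16.5% of all resting loci. The spellings TGAGGTCA and TGACCTCA of the CRE contain it, on the one or the other strand. The full PPARγ motif with up to 2 mismatches was at 245 loci (4.89%) against 1.76%, a difference of 3.13 percentage points (2.23 to 3.94), and at 3.67% of all resting loci. No TRE, CRE or PPAR motif was found at 54.4% of the loci with PPARγ, 50.2% of those without and 33.4% of the hubs. The 1133 single PPAR sites lay at a median of 40.0 bp from the centre, and 27.2% were within 20 bp.

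Other motifs of macrophage factors were searched on both strands in the same way. The PU.1 motif (ACTTCCT) was at 24.4% of the loci with PPARγ and 22.4% of those without, a difference of 2.05 percentage points (-0.22 to 4.24), and at 21.7% of all resting loci. The motif TCACGTG, named here for Tfec and Mitf, was at 4.57% and 2.77%, a difference of 1.80 percentage points (0.80 to 2.70). It was at 3.50% of all resting loci, and which factors read it here was not tested. The Sp1 motif (CCCCGCCC) was at 5.31% and 3.19%, a difference of 2.11 percentage points (1.04 to 3.08), and at 5.35% of all resting loci. The Runx motif (TGTGGTT) was at 7.70% and 7.35%, and at 7.37% of all resting loci. The CEBP motif (TTACACAA, TTACATAA, TTACGCAA, TTACGTAA, TTGCACAA, TTGCATAA, TTGCGCAA or TTGCGTAA) was at 10.2% and 10.3%, and at 8.79% of all resting loci. The NF-κB motif was at 2.18% and 1.44%, at 4.01% of the hubs and at 2.65% of all resting loci. The median GC content of the windows was 49.0% with PPARγ and 47.0% without.

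**Figure D2:**
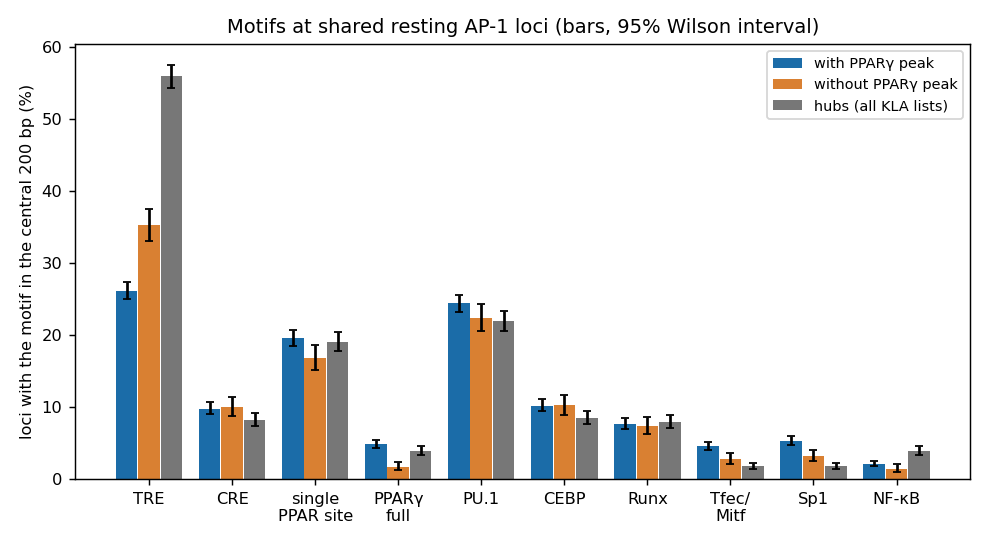
Share of loci (y axis, percent) with each motif (x axis) in the central 200 bp, for loci with PPARγ, loci without PPARγ and hubs; bars give 95% Wilson intervals. The TRE stood at 26.2%, 35.3% and 55.9%, the full PPARγ motif at 4.89%, 1.76% and 4.01%, and the single PPAR site at 19.6%, 16.8% and 19.1%.

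PU.1, the factor that defines macrophage enhancers, had a Veh peak at 3582 of the 5012 loci (71.5%, 70.2% to 72.7%). The share was 57.2% at the loci without PPARγ, a difference of 14.3 percentage points (11.7 to 16.8), 69.8% at hubs and 56.8% over all resting loci. CEBPα, a myeloid lineage factor, had a Veh peak at 47.0% against 37.7%, a difference of 9.35 percentage points (6.74 to 11.9). It was at 50.9% of the hubs and 32.3% of all resting loci. Within 10 bins of Jun count these differences were 13.04 for PU.1 and 6.95 for CEBPα. PU.1 was at 61.6% of the loci in the lowest of 4 PPARγ bins and 77.2% in the highest, and CEBPα at 36.6% and 55.7%. After KLA, PU.1 was at 71.9% and CEBPα at 43.0% of the loci. At the loci that had such a peak in Veh, the centre of the PU.1 peak lay a median of 39.5 bp from the locus centre, and that of the CEBPα peak 27.5 bp.

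FosL2 is another AP-1 monomer, of the Fos family. Its Veh list of 5329 peaks had a peak at 1409 of the loci with PPARγ (28.1%, 26.9% to 29.4%) and at 13.6% of those without, a difference of 14.5 percentage points (12.5 to 16.5), and of 12.9 within 10 bins of Jun count. FosL2 in Veh was most frequent at the hubs, at 49.8%, and was at 16.2% of all resting loci. Fos and JunB, which are induced by KLA, had a Veh peak at 5.01% and 1.98% of the loci. The rule does not use the Veh list of FosL2. It does use the KLA list, since loci with all 6 KLA peaks are left out.

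The knockout asks whether the 3 monomers are found at these loci without PPARγ. ATF3 had a knockout peak at 4517 loci (90.1%, 89.3% to 90.9%), JunD at 3160 (63.0%, 61.7% to 64.4%) and Jun at 1246 (24.9%, 23.7% to 26.1%). ATF3 was thus lacking at 9.88%, JunD at 36.95% and Jun at 75.1% of the loci, where all resting loci of each monomer gave 21.7% for ATF3, 46.4% for JunD and 78.1% for Jun. The knockout Jun list held 4290 peaks against 15548 in C57 Veh, whereas ATF3 had 28318 against 23160 and JunD 19355 against 19653. At 1998 loci (39.9%) ATF3 and JunD were present without Jun, at 1305 (26.0%) ATF3 alone, at 981 (19.6%) all 3, and at 299 (5.97%) none.

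Loci without PPARγ in wild-type cells kept fewer peaks in the knockout than loci with it. Their shares were 80.4% for ATF3, 42.2% for JunD and 13.7% for Jun. The differences were 9.72 percentage points for ATF3 (7.79 to 11.7), 20.9 for JunD (18.3 to 23.5) and 11.2 for Jun (9.17 to 13.1). Because the loci with PPARγ had stronger peaks, both sets were also compared within 10 bins of the wild-type count of the same monomer. There the differences were 6.37 percentage points for ATF3, 13.5 for JunD and 5.90 for Jun, with a higher share at loci with PPARγ in 10 of 10 bins for each monomer. In the lowest JunD bin the shares were 43.4% with PPARγ and 27.1% without, and in the highest 84.8% and 75%.

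The amount of PPARγ was set beside the knockout. The loci were divided in equal parts of 2506 by PPARγ count. JunD had a knockout peak at 63.9% of the upper part and 62.2% of the lower part, a difference of 1.68 percentage points (-0.996 to 4.34). ATF3 had 89.5% and 90.7%, a difference of -1.24 (-2.89 to 0.42), and Jun 29.5% and 20.2%, a difference of 9.26 (6.87 to 11.6). Wild-type JunD was stronger where PPARγ was: its median percentile went from 49.9 in the lowest of 4 PPARγ bins to 75.7 in the highest. Within 10 bins of JunD count the JunD difference was -7.94 percentage points, and it was below 0 in all 10 bins. Within bins of their own counts it was -4.76 for ATF3 and 1.20 for Jun, above 0 in 1 and 5 of 10 bins.

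Members with a Jun peak in the knockout held a TRE more often than those without. The TRE was at 33.9% and 23.6%, a difference of 10.3 percentage points (7.36 to 13.3), the CRE at 12.3% and 9.004% (difference 3.29, 1.33 to 5.41) and the single PPAR site at 22.5% and 18.6% (difference 3.87, 1.30 to 6.56). The full PPARγ motif was at 4.90% and 4.89% (difference 0.012, -1.28 to 1.503). The CRE and the single PPAR site share matches where the CRE is spelled TGAGGTCA or TGACCTCA. None of these differences was compared within bins of Jun count, and the part of Jun strength was not tested.

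The 3 loci with the highest Jun counts among those that lacked only Jun in the knockout are given next. At chr3:135516946-135517182, 86 bp from a TSS of Manba, a lysosomal mannosidase, wild-type counts were 167 for ATF3, 94 for Jun and 143 for JunD, and knockout counts 133 for ATF3 and 117 for JunD. At chr7:80828547-80828803, 2701 bp from a TSS of Iqgap1, a scaffold of the actin cytoskeleton, wild-type Jun had 83 and the knockout had no Jun peak. The locus at chr16:92867245-92867559 lay 5525 bp from a TSS of Gm49723 and 41253 bp from that of Runx1, the nearest protein-coding gene. Wild-type Jun had 82 there, and the knockout kept ATF3 with 161 and JunD with 120. All 3 had peaks of every KLA list but FosL2.

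Among loci with all 3 knockout peaks, those with the highest Jun counts were near Rhob, Ehd1 and Spag9. At chr12:8509755-8509991, 9864 bp from the TSS of Rhob, a small GTPase, and 1328 bp from that of the non-coding 5033421B08Rik, Jun had a count of 109 in wild-type and 47 in knockout cells, ATF3 280 and 206, and JunD 168 and 146. At chr19:6297722-6297942, 82 bp from a TSS of Ehd1, which recycles endocytosed membrane, Jun had 99 and 36. At chr11:93995126-93995368, 844 bp from a TSS of Spag9, a JNK scaffold, Jun had 97 and 24. These 3 loci and the Iqgap1 locus had the highest mean percentile over ATF3, Jun, JunD and PPARγ. Counts of different lists are printed side by side and are not scaled.

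Balb/cJ is a strain with many sequence differences from C57. Its comparison shares the C57 Veh lists with that of the knockout, so values of both are only set side by side. In Balb/cJ Veh, JunD had a peak at 4333 of the loci (86.5%, 85.5% to 87.4%), ATF3 at 3810 (76.0%, 74.8% to 77.2%) and Jun at 2871 (57.3%, 55.9% to 58.6%). The shares lacking were 13.5% for JunD, 24.0% for ATF3 and 42.7% for Jun, where all resting loci of each monomer gave 24.2%, 36.8% and 51.3%. All 3 monomers were present at 2510 loci (50.1%) and none at 388 (7.74%).

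Loci without PPARγ had Balb/cJ peaks at 78.9% for JunD, 69.1% for ATF3 and 47.7% for Jun. The differences were 7.59 percentage points for JunD (5.56 to 9.71), 6.95 for ATF3 (4.58 to 9.38) and 9.63 for Jun (6.98 to 12.3). Within 10 bins of wild-type count they were 1.71 for JunD, 1.28 for ATF3 and 2.37 for Jun, with a higher share at loci with PPARγ in 8, 8 and 5 of 10 bins. Between the upper and lower part by PPARγ count, the Balb/cJ JunD shares were 89.7% and 83.2%, and the difference within bins of JunD count was -0.36 percentage points, above 0 in 5 of 10 bins. For Balb/cJ ATF3 the shares were 77.7% and 74.3%, and within bins of ATF3 count the difference was -4.10, above 0 in 2 of 10 bins. For Balb/cJ Jun they were 62.0% and 52.6%, and within bins of Jun count the difference was -0.66, above 0 in 6 of 10 bins. Whether the knockout and Balb/cJ differences differ was not tested.

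The lists of the knockout and of Balb/cJ differ in length, most of all for Jun. When the knockout and Balb/cJ lists of Jun were both cut to the 4290 peaks with the highest counts, Jun was at 24.9% of the loci in the knockout and at 27.6% in Balb/cJ. With 19355 JunD peaks in each, JunD was at 63.0% and 85.0%, and with 19506 ATF3 peaks in each, ATF3 was at 86.6% and 76.0%.

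**Figure D3:**
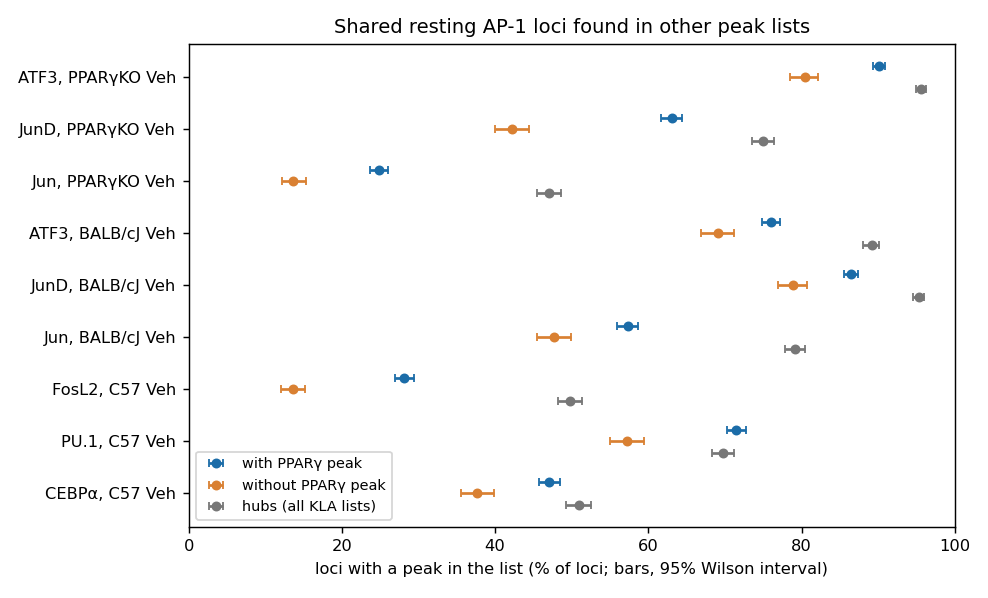
Share of loci (x axis, percent) with a peak in each list (y axis) for loci with PPARγ, loci without PPARγ and hubs; bars give 95% Wilson intervals. Knockout JunD stood at 63.0%, 42.2% and 74.97%, and Balb/cJ JunD at 86.5%, 78.9% and 95.3%.

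**Figure D4:**
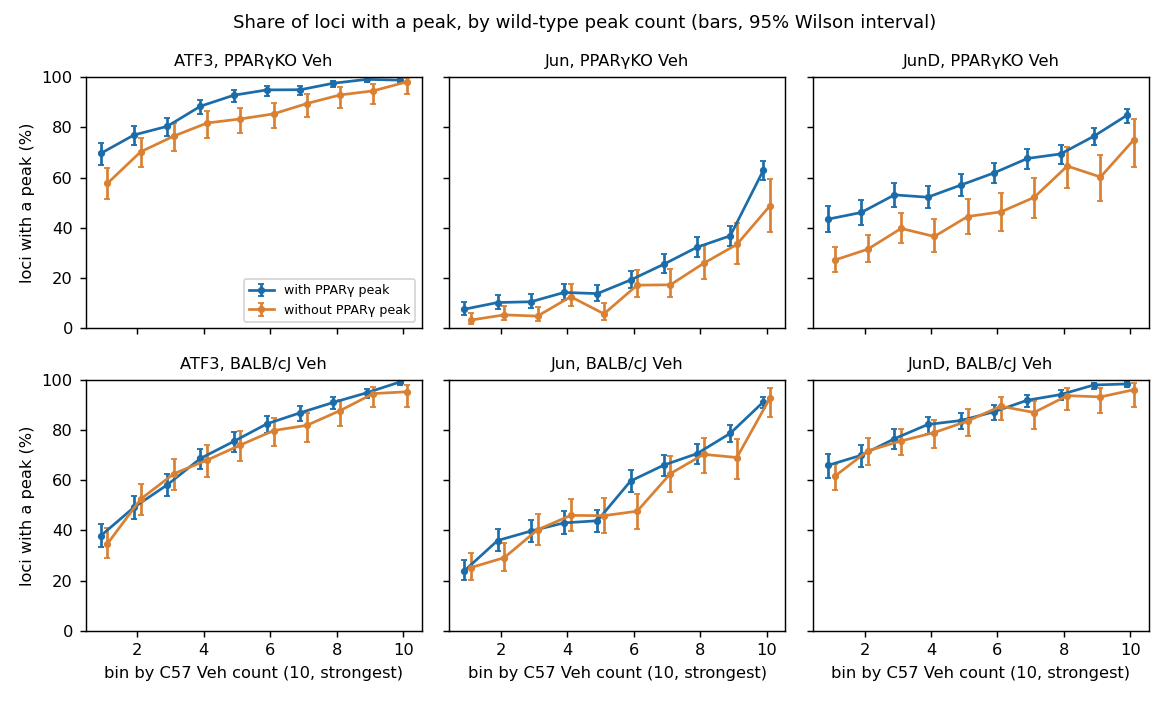
Share of loci (y axis, percent) with a peak in the knockout (upper row) or in Balb/cJ (lower row) in 10 bins of the wild-type count of the same monomer (x axis, weakest to strongest); bars give 95% Wilson intervals. The loci with PPARγ lie above those without in all 10 JunD knockout bins, and in 8 of 10 JunD Balb/cJ bins.

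The 2 loci with the highest PPARγ counts among the 388 with no Balb/cJ Veh peak were near Ttll4 and Pcnx4. At chr1:74698745-74699024, in an exon of Ttll4, a tubulin modifying enzyme, PPARγ had a count of 213, and no KLA list and no knockout list had a peak. At chr12:72535917-72536357, 246 bp from a TSS of Pcnx4, PPARγ had 207 and ATF3 26, the knockout had peaks of ATF3 with 17 and JunD with 41, and 5 KLA lists had a peak. Sequence differences between the strains were not analysed here.

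Genes were linked to a locus in the gene or within 5 kb of it. Of 21938 protein-coding genes, 2909 (13.3%) had one of these loci, and 9299 (42.4%) had any resting AP-1 locus. Of the 2909, 2136 had 1 locus, 503 had 2 and 270 had 3 or more, and 1478 loci were linked to no protein-coding gene. Longer genes hold more loci, and genes with a resting AP-1 locus can more readily hold one of these. Counts over gene lists are therefore set beside gene length and the count with any resting locus, and are not tested. The lists were chosen with earlier results of these data known.

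A few genes of lipid handling held some of the highest PPARγ counts. Loci were linked to 8 of 25 PPARγ and lipid genes (32.0%; median length 21675 bp against 17425 bp for all genes), and 24 of the 25 had any resting AP-1 locus. At Plin2 the count was 457, and at Cpt1a, which brings fatty acids into mitochondria, it was 387 (chr19:3378571-3378890), with ATF3 57, Jun 22 and JunD 79. At Pnpla2, a triglyceride lipase of lipid droplets, PPARγ had 383 (chr7:141456859-141457105). Cd36, a fatty acid and oxidized lipoprotein receptor, had 3 loci, the strongest with a PPARγ count of 188 and peaks of all 3 monomers in the knockout. Pparg itself had 1 of its 8 resting loci in the set, with a PPARγ count of 43, and Rxra, its partner, 2 of 4. Acsl1 had a locus with a count of 29, and Fabp4, Lpl, Angptl4 and Pdk4 had none of these loci.

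Cholesterol efflux genes were linked in 6 of 18 cases (33.3%; median length 33914.5 bp), and 16 had any resting AP-1 locus. Soat1, which esterifies cholesterol, had 4 loci with a highest PPARγ count of 121, and Nceh1, which hydrolyses the esters, 3 with 108. Abca1, the exporter of cholesterol to apolipoprotein, had 3 with 105. None of the 3 highest loci of these genes had a Jun peak in the knockout, but 1 of the 3 Abca1 loci did. Jun was lacking in the knockout at 75.1% of all 5012 loci.

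Lysosome genes were linked in 14 of 24 cases (58.3%; median length 24516 bp), and all 24 had any resting AP-1 locus. Lipa had 4 of its 6 resting loci in the set, and its highest count was 563. Atp6v0d2, a subunit of the proton pump, had 170 (chr4:19918967-19919202), and Gpnmb, a glycoprotein of lipid laden macrophages, 159 (chr6:49036417-49036658). The transcription factors of lysosome genes Tfeb, Tfe3, Tfec and Mitf each had at least 1 locus, and Mitf had 3 of 16.

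Of the macrophage surface receptors, 15 of 23 had a locus (65.2%; median length 21111 bp), and 22 had any resting AP-1 locus. Trem2, a lipid sensing receptor, had a PPARγ count of 205 at its locus, Cd300a 195 and Csf1r, the receptor that macrophages need for growth, 145. Tlr4, the receptor that KLA activates, had 3 of its 9 resting loci in the set, the strongest with PPARγ 116, ATF3 170, Jun 61 and JunD 128, with all 3 monomers in the knockout and in Balb/cJ Veh and in every KLA list but FosL2.

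Of 25 genes listed as inducible by KLA, 15 had a locus (60.0%, median length 5130 bp), and 23 had any resting AP-1 locus. Among all protein-coding genes 13.3% had one of these loci and 42.4% any resting AP-1 locus. The list was chosen by hand, and the induction of its genes was not measured here. Zfp36, which destabilises Tnf mRNA, had the highest PPARγ count of the list, 240 (chr7:28383027-28383381). Il1a had 162 and Tnfaip3, an inhibitor of NF-κB signalling, 131. Tnf, at chr17:35200491-35200763, had a PPARγ count of 77 and ATF3 148, Jun 57 and JunD 117 in Veh, and after KLA had Jun, JunD, Fos, FosL2 and JunB peaks but no ATF3 peak. Nfkbia had 122, and KLA peaks of ATF3, Jun and FosL2 only.

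AP-1 and lineage transcription factors had a locus in 15 of 21 cases (71.4%; median length 7356 bp), and all 21 had any resting AP-1 locus. Cebpb had a PPARγ count of 308 at chr2:167687667-167687919, where only Jun kept a knockout peak. Junb had 174 and Atf3 129, both with an ATF3 peak and no Jun peak in the knockout. Of all 5012 loci, 90.1% had a knockout ATF3 peak and 75.1% lacked a knockout Jun peak. Runx1 had 4 of 24 resting loci in the set.

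**Figure D5:**
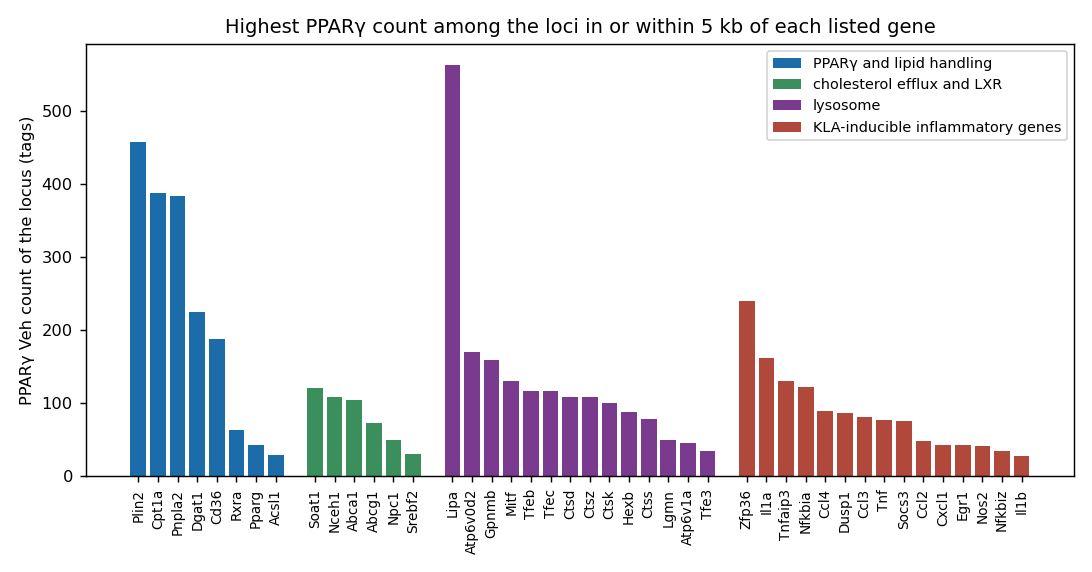
Highest PPARγ count in Veh (y axis, tags) among the loci in or within 5 kb of each gene (x axis) that has one, for 4 gene lists in separate colours. Lipa (563), Plin2 (457), Cpt1a (387) and Pnpla2 (383) stand above the genes listed as inducible by KLA, of which Zfp36 has 240. Other lipid genes, such as Pparg (43) and Acsl1 (29), lie below Zfp36.

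By number of loci, the first 3 genes were models of over 1 Mb. Gm20388 spans 4434882 bp and had 29 loci, Gm37240 had 11 and Fgfr2 had 10, or 0.34 to 0.79 loci per 100 kb. Zfp704 had 9 loci, App, the amyloid precursor protein gene, 8, and Itpkb, Tbxas1 and Tmcc3 7 each. Itpkb, an inositol trisphosphate kinase, had 6.71 loci per 100 kb, PPARγ counts of 39 to 348, and no Jun peak in the knockout at any of its 7 loci, against 5 in Balb/cJ Veh. Tbxas1, the thromboxane synthase, had 2 of 7 with Jun in the knockout and 6 of 7 with ATF3. App had ATF3 at 8 of 8 loci in the knockout and Jun at 0 of 8. Over all 5012 loci, the knockout lacked Jun at 75.1% and had ATF3 at 90.1%, and Balb/cJ Veh had Jun at 57.3%. The Jun lists held 4290 peaks in the knockout and 10957 in Balb/cJ Veh. Whether single genes differ from these shares was not tested.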

How the data were processed

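ChIP-seq peak lists of TGEMs were used, 28 lists of 34 samples. Inputs had no peak list to analyse, and the Balb/cJ Veh lists of Fos and JunB (0 and 9 peaks) were left out. Per the labels and the study's methods, the authors aligned reads with Bowtie2 against mm10 (Balb/cJ reads against that strain's genome, with positions then moved to mm10), found peaks with HOMER using the input of the same treatment, and kept those with an IDR under 0.05 between replicate experiments. The deposited count of a peak is a whole number that was not scaled to library size, and how replicates were combined is not given in the sources used here. The deposited score is the scaled IDR, used here only for the stricter threshold of 0.01.

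Peaks of ATF3, Jun and JunD in Veh that overlapped by 1 bp or more were joined into loci (Python 3.11.15, numpy 2.4.6, pandas 2.3.3), and a locus had a peak of another list where the 2 overlapped by 1 bp. Members and gene lists were chosen with earlier results of these data known. Motifs were exact spellings (up to 2 mismatches for the full PPARγ motif) on both strands of the central 200 bp in GRCm38, and TSSs and genes were those of GENCODE vM21. 2 of the members lay on scaffolds with no sequence read here. Named loci were the 4 with the highest mean percentile over ATF3, Jun, JunD and PPARγ, the 3 with the highest PPARγ count and no KLA peak, the 3 highest in Jun count with only Jun lacking in the knockout and the 3 with all present, and the 2 highest in PPARγ with no Balb/cJ Veh peak; named genes were the 8 with most members and, per list, the 3 with the highest PPARγ counts. The genes Cd36, Pparg, Rxra, Acsl1, Fabp4, Lpl, Angptl4, Pdk4, Tlr4, Tnf, Nfkbia, Runx1, Tfeb, Tfe3, Tfec and Mitf were added after their values were seen. No sequence or position from chromosome 18 is given. Shares carry 95% Wilson intervals and differences 95% Newcombe intervals. Overlaps, intervals and motif searches were tested on simulated data, with 7 of 7 checks passed. The alternatives were other joining rules, a stricter IDR, the strongest 50% of each list, equal list lengths, a knockout peak within 500 bp, bins by count, a 100 bp window, 1 mismatch, protein-coding TSSs and the gene of the nearest TSS. Motif differences within bins of Jun count were chosen after seeing the data.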

Additional observations from a re-analysis of the deposited data

How the results depend on the processing

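Values with no test are compared with the interval of the main value. Of 108 alternative values, 59 stayed within it (or, for counts, within 1.5 times), 49 moved and 0 reversed. Among the alternative values, 46 were differences between loci with and without PPARγ. Of these, 44 were above 0, and the other 2 were those of the TRE. They repeat a few main differences under other settings, so they are not separate results. Some differences that were not varied lay below 0, such as FosL2 in KLA (-2.88) and the CRE (-0.19). No paired analysis was possible because each condition has 1 list, with no replicates to pair. A peak that did not pass the threshold of its list counts as lacking, the Jun knockout list was the shortest of the 3 knockout lists (4290 peaks), and the read depth behind the lists is unknown here.

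With the strongest 50% of each list there were 2621 members. The shares of members in the knockout were then 95.4% for ATF3 and 72.1% for JunD, in Balb/cJ 82.1% for ATF3, 62.6% for Jun and 94.3% for JunD, and in Veh 55.3% for PU.1 and 42.8% for CEBPα, and the differences with minus without PPARγ were 3.53 (ATF3), 8.91 (Jun) and 11.7 (JunD) percentage points in the knockout and 5.19 for JunD in Balb/cJ. At an IDR of 0.01 the knockout shares were 93.5% (ATF3), 20.9% (Jun) and 68.2% (JunD), the Balb/cJ shares 81.6%, 60.5% and 92.5%, the PU.1 share 66.4%, and the knockout differences 7.21 (ATF3) and 8.94 (Jun). PU.1 was at 64.0% with centres within 100 bp and at 64.1% with reciprocal overlap of 50%.

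At equal list lengths ATF3 in the knockout was at 86.6%, and in Balb/cJ Jun was at 27.6% and JunD at 85.0%, with differences of 13.3 (Jun) and 10.2 (JunD). With a knockout peak within 500 bp the shares were 91.6% (ATF3), 26.5% (Jun) and 65.8% (JunD), and the differences 6.42 (ATF3) and 17.9 (JunD). Within bins of wild-type count the knockout differences were 6.37 (ATF3), 5.90 (Jun) and 13.5 (JunD), and the Balb/cJ differences 1.28, 2.37 and 1.71.

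In the central 100 bp the TRE was at 21.3%, the single PPAR site at 11.9% and the full PPARγ motif at 2.48% of members (difference 1.52). With up to 1 mismatch the full motif was at 0.78% (difference 0.46). With TSSs of protein-coding genes 20.2% of members were within 1000 bp. By nearest TSS, 5 iron, heme and oxidative stress genes (2 in the main analysis), 1 T and B cell gene (3) and 1 hepatocyte or muscle gene (0) had a locus. Within bins of Jun count, an alternative chosen after seeing the data, the TRE difference was -10.8, that of the single PPAR site 1.93 and that of the full motif 3.00.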

Other observations

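The Balb/cJ KLA lists were used in no comparison above. At the 5012 resting loci with PPARγ, Fos had a Balb/cJ KLA peak at 4466 (89.1%, 95% Wilson interval 88.2% to 89.9%), ATF3 at 4458 (88.9%), JunD at 4017 (80.1%), JunB at 3147 (62.8%) and Jun at 2068 (41.3%). In the same order, the loci without PPARγ had 84.2%, 86.5%, 71.5%, 56.4% and 33.8%. All resting loci had 72.1%, 71.7%, 63.5%, 47.2% and 29.5%. In C57 KLA, whose lists chose the loci, Fos was at 70.8% and JunB at 39.5%. The Balb/cJ KLA lists of Fos and JunB held 40459 and 21667 peaks, against 24365 and 13375 in C57, and the part of list length was not tested. Jun was at 57.3% of the loci in Balb/cJ Veh and at 41.3% in Balb/cJ KLA, from lists of 10957 and 11317 peaks.

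The remaining gene lists are given by their counts. Of 17 matrix and remodelling genes 7 had one (41.2%; median length 15071 bp), and 15 had any resting AP-1 locus. The highest PPARγ count was 188 at Plaur, the urokinase receptor, where the knockout had no ATF3, Jun or JunD peak. Of 14 iron, heme and oxidative stress genes 2 had one (14.3%; median length 18311.5 bp), Sqstm1 with a PPARγ count of 80 and Slc7a11, a cystine transporter, with 36, and 11 had any resting AP-1 locus. Of 8 T and B cell genes 3 had one, Cd3g (63), Cd79a (73) and Ms4a1 (78), of 8 neutrophil and mast cell genes 1, S100a8 (64), and of 8 hepatocyte and muscle genes 0.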
